A study of Gallus gallus with 6 samples.

Results

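Serpins of liver and matrix were followed over 6 Affymetrix chicken arrays. The set was defined by 10 gene names, and its members were all probe sets that the platform's probe-to-gene table gives to exactly 1 of these names. Of the 10 genes, 8 had a probe set there: SPIA4, SPIA5, SERPINA10, SERPIND1, SERPINF1, SERPINH1, SERPINE2 and SERPINB6. They carry 14 of 38439 probe sets. SERPINC1 and SERPINF2 had no probe set under their name in that table and were not analysed here. The set was proposed with the signals of these arrays already known, so the members' levels and differences are given as a description, without a test.

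The arrays held total RNA of liver (1 array), adipose tissue (1 array) and mixed tissue (4 arrays, mix 1 to mix 4), all from male Arbor Acres broilers at 49 days (7 weeks) of age on a commercial diet. Per the labels 21 tissues were taken. Neither the tissues in each mix nor whether a sample is 1 bird or several is given in the sources used here. The study set out to find genes high in adipose tissue and liver against the other tissues. A gene of a single tissue is thinned out in a mix, so being brighter than the mixes does not mean being brighter than all tissues they hold, and the spread among mixes includes their unlike content.

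Serpins share a fold in which an exposed loop serves as bait for a protease. When the protease cuts the loop the inhibitor snaps into a new shape and traps the enzyme, so each molecule is used once. Hepatocytes secrete many inhibitory serpins into plasma, where they restrain clotting, fibrinolysis and the proteases of leukocytes. Other family members act inside cells or in connective tissue, and some, such as the collagen chaperone SERPINH1, inhibit no protease at all.

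Values are MAS5 signal intensities as deposited, and differences are log2(signal + 13.3), with the 25th percentile over all arrays, 13.3, as pseudocount. The median signal of an array was 27 on liver, 48 on adipose tissue and 44.8 to 58.1 on the mixes. Over the 25958 probe sets tested, those that exceeded 44.1, the pooled median, on any array, liver lay at a median log2 difference of -0.75 from the mean of the mixes and adipose tissue at 0.08. All 14 probe sets of the members were among those tested, but several passed through their high liver value alone. The labelled tissues carried their markers. All 11 hepatocyte markers were brightest on liver and lay above all 4 mixes there, as did 5.53% and 6.78% of all probe sets tested. The marker C8A exceeded the pooled median on liver alone, so the filter fixed its place. Of 8 adipocyte markers 7 were brightest on adipose tissue, where 25.9% of probe sets were. On liver 3 of the 8 also lay above all 4 mixes.

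The 4 secreted serpins SPIA4, SPIA5, SERPINA10 and SERPIND1 were bright on liver and close to the floor of the arrays nearly everywhere else. SERPINA10, the inhibitor that with protein Z blocks clotting factor X in mammals, gave a signal of 6174 on liver, 1.7 on adipose tissue and 28.5, 23.1, 12 and 45.3 on mix 1 to mix 4. On the liver array 99.4% of probe sets were dimmer than it, against 3.96% on adipose tissue and 22.9% to 45.1% on the mixes. Liver stood apart from all other arrays, which lay at 45.3 or less, where signals have no order. The log2 difference was 7.32 for liver minus the mixes and 8.69 for liver minus adipose tissue. The last value rests on an adipose signal near 0 and was 7.08 with the pooled median as pseudocount and 7.13 with values below that median set to it, where SERPIND1 had 7.18.

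SERPIND1 is heparin cofactor II, which inhibits thrombin on dermatan sulfate. Its signal was 8648 on liver, 59.8 on adipose tissue and 283.5, 43.1, 42.6 and 155.9 on mix 1 to mix 4. Liver was again far above the rest, but this was the 1 liver serpin clearly above the pooled median on mixes, on mix 1 and mix 4, where 80.3% and 68.0% of probe sets were dimmer. The log2 difference was 6.27 for liver minus the mixes and 6.89 for liver minus adipose tissue. SERPIND1 also had the widest spread among the mixes of the 4 (SD 1.2 on the log2 scale, n = 4, against 0.23 to 0.50 for the other members of the group). Those others lay at 45.3 or less on the mixes, where the pseudocount narrows the log2 spread, so these SDs are not on a par.

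SPIA4 and SPIA5 belong to clade A, the group of the mammalian antitrypsins, and RefSeq lists SERPINA4 as another name of SPIA4. By its brightest probe set SPIA4 gave 3289 on liver, 6.9 on adipose tissue and 18.4, 20.8, 6.6 and 20.6 on the mixes. Its other probe sets gave 968.5 and 2005 on liver, with at most 10.3 on any other array. All 3 probe sets thus showed the same picture, with log2 differences of 6.82, 5.87 and 6.81 for liver minus the mixes. SPIA5 gave 4257 on liver, 33.0 on adipose tissue and 23.6, 38.8, 26.2 and 34.0 on the mixes, a log2 difference of 6.62. Its second probe set gave 941.4 on liver and 1.0 to 3.9 elsewhere (5.98). The brightest probe set of SPIA4 has the suffix _s_at, which in Affymetrix naming marks probes that match more than 1 transcript, so near copies of the gene may add to its signal.

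Since signals near the floor have no order, the log2 differences of these genes depend on the pseudocount. With the pooled median as pseudocount they were 5.79 for SPIA4, 5.85 for SPIA5, 6.47 for SERPINA10 and 5.86 for SERPIND1. With trimmed-mean scaling of the arrays they were 7.41, 7.20, 7.92 and 6.88. Against the pooled median of 44.1 itself, the liver signal was 74.6-fold higher for SPIA4, 96.5-fold for SPIA5, 140.0-fold for SERPINA10 and 196.1-fold for SERPIND1.

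**Figure D1:**
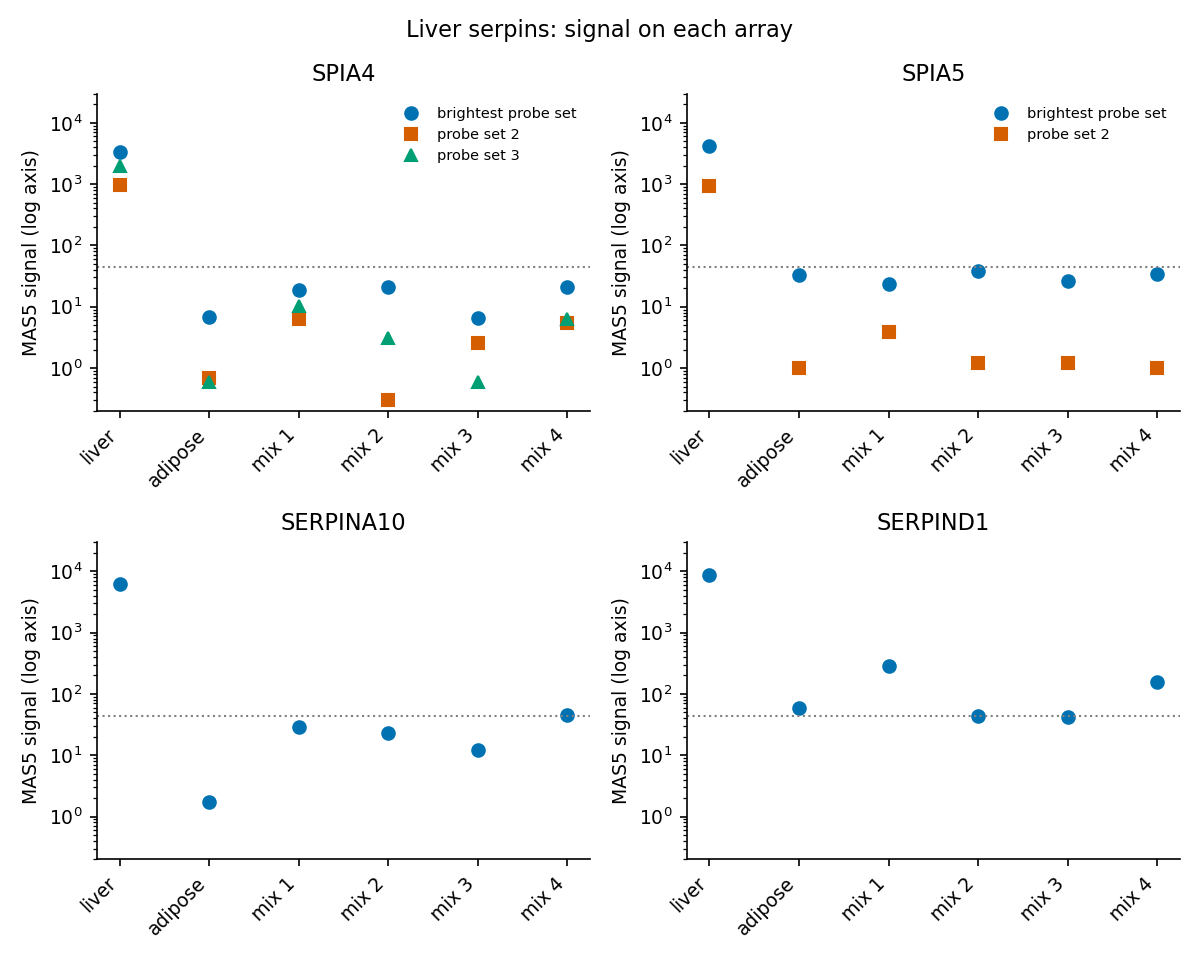
MAS5 signal (log axis) of SPIA4, SPIA5, SERPINA10 and SERPIND1 on liver, adipose tissue and mix 1 to mix 4, with 1 point per array and probe set and a dotted line at the pooled median of 44.1. Each probe set lies at 941.4 or more on liver, and SERPIND1 on mix 1 (283.5) is the highest point elsewhere.

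By their brightest probe sets these 4 of the 8 genes were at least 4-fold above each of the other 5 arrays on liver. The share of the probe sets tested was 0.913%. Because the members were chosen with these signals known, nothing follows from that contrast. By the width of that margin SERPINA10 was 7th, SPIA4 8th, SPIA5 16th and SERPIND1 62nd of 25958 probe sets. Their margins were 6.72, 6.60, 6.36 and 4.87 on the log2 scale. The same 4 genes were at least 4-fold above adipose tissue on liver, as were 2.72% of probe sets. The fainter probe sets of SERPINF1, described below, met both 4-fold lines as well.

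On mix 2 and mix 4, which carried several hepatocyte genes, the liver serpins reached at most 1.80% of their liver signal, the value of SERPIND1 on mix 4. Albumin (ALB), the main plasma protein, gave 15031 on liver, 68.4 on adipose tissue and 168, 1844, 314.9 and 4698 on mix 1 to mix 4, so that mix 4 reached 31.3% and mix 2 12.3% of its liver signal. The fibrinogen chain FGB reached 29.5% on mix 2, and APOH 10.4% on mix 4. Of the 4 liver serpins 0 exceeded 5% of their liver signal on any array, against 5 of the 11 hepatocyte markers on mix 4 and 3 on mix 2. The 4 were chosen with these signals known, so nothing follows from that contrast. Of the other serpins tested that were brightest on liver, AGT reached 16.8% on mix 4 and SERPING1 42.1% on mix 2. SPIA1 and SPIA3 reached at most 2.25% and 0.992%. On mix 4 and mix 2 markers such as C8A, a complement component, were as faint as the 4 liver serpins, at 0.315% and 0.252%. As a median, the liver serpins stood at 0.766% of their liver signal on mix 4 and 0.565% on mix 2, and the hepatocyte markers at 2.01% and 1.76%. On mix 2 the 4 liver serpins, and on mix 4 all but SERPIND1, lay at 45.3 or less, where signals have no order. Their shares there depend on the floor of the arrays. On mix 1 the medians were 0.557% for the liver serpins and 0.213% for the markers. The median log2 levels there were close, at 5.30 and 5.20, against 12.3 and 13.5 on liver. These shares therefore do not rank the serpins and the markers by their level on mix 1.

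SERPIND1 was highest among the mixes on mix 1, at 3.28% of its liver signal, where the summed signal of the hepatocyte markers was lowest. That sum was 128216 on liver, 1055 on adipose tissue and 609.1, 8514, 807.4 and 9468 on mix 1 to mix 4. On mix 2 and mix 4 it is mostly ALB and FGB. The median log2 level of the markers was 5.20, 7.66, 5.74 and 7.99 on mix 1 to mix 4. No marker was listed at 0 on any array. What the markers' levels contribute to the serpins' signals on the mixes was not tested. In bulk tissue, fewer cells of a type and less RNA per cell cannot be told apart.

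**Figure D2:**
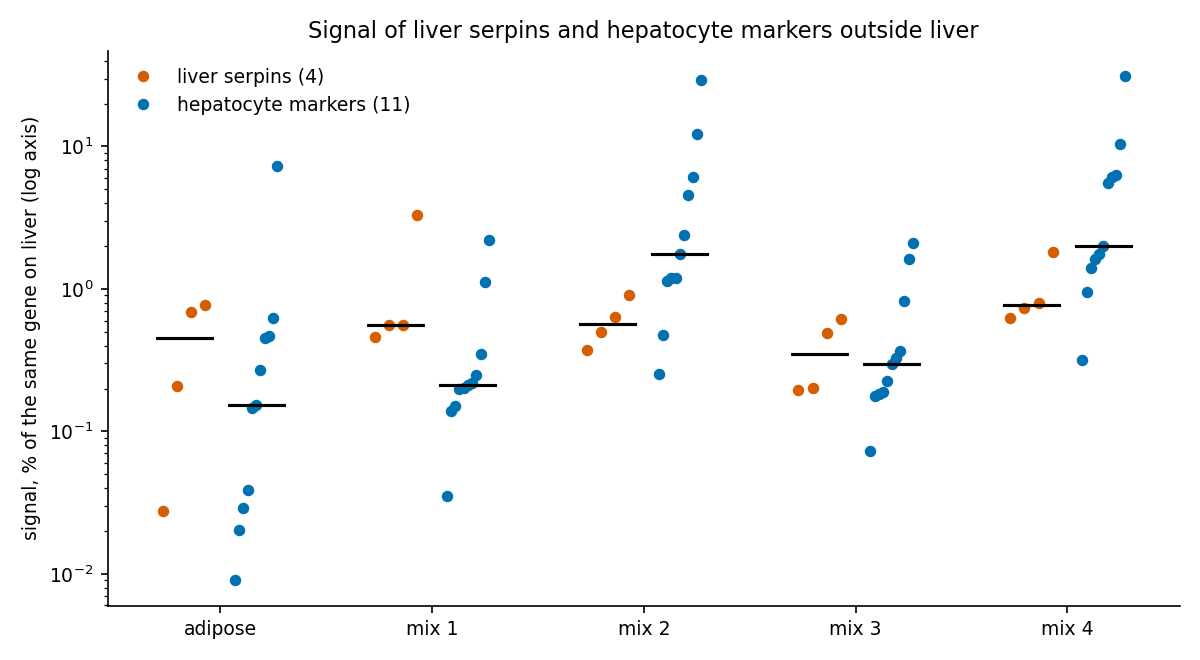
Signal of the 4 liver serpins and the 11 hepatocyte markers on adipose tissue and mix 1 to mix 4, as percent of the same gene's signal on liver (log axis), with 1 point per gene and a bar at the median. The highest of the 4 liver serpins is SERPIND1 on mix 1 at 3.28%, while the hepatocyte markers reach 29.5% on mix 2 and 31.3% on mix 4.

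A list of proteases, cofactors and other partners of serpins, those of the matrix serpins and of SERPINC1 and SERPINF2 included, was also mostly bright on liver. Of the 18 genes measured, liver exceeded every mix for 12 and was below every mix for 1, as it was for 6.78% and 60.5% of all probe sets tested. The list was drawn up with earlier results of these data known, so its counts are a description. Of the 12, F9 and PROZ, described below, and PROC and KLKB1 exceeded the pooled median on liver alone. For those genes the filter fixed that liver exceeded every mix, so they add no weight to the count. With quantile and with trimmed-mean scaling liver exceeded every mix for 14 of the 18, and for 23.1% and 17.6% of all probe sets. The median log2 difference of the 18 was 4.13, against -0.75 over all probe sets tested. By limma, in which the spread comes from the mixes alone, 0 of the 18 had an adjusted p under 0.05. An unadjusted p under 0.05 was found for 12, as for 19.8% of all probe sets in either direction. For the genes that exceeded the pooled median on liver alone, the p-values and their part in that median carry no weight either. Over all probe sets 18 passed (0.0693%), all higher on liver, and 0 with any 1 mix left out. Thrombin's precursor F2, the enzyme that SERPIND1 blocks, gave 3132 on liver, 6.7 on adipose tissue and 1.1 to 154.9 on the mixes (5.90, limma adjusted p = 0.196). Plasminogen (PLG), the precursor of the clot-dissolving enzyme, gave 11936 on liver, 33.3 on adipose tissue and 11.6 to 186.4 on the mixes (6.96, limma adjusted p = 0.144).

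Of the pair that SERPINA10 works with, PROZ (protein Z) gave 553.3 on liver, 3.4 on adipose tissue and 2.6 to 16.8 on the mixes, a log2 difference of 4.83. F10, the protease itself, was also seen on mixes, with 1905 on liver, 52.3 on adipose tissue and 99.5, 379.1, 739.6 and 223.9 on mix 1 to mix 4 (2.69). HABP2, a plasma protease that binds hyaluronan, and F9, a clotting factor, had differences of 6.99 and 6.63. Liver did not exceed every mix for the other 6 genes. PLAT and PLAU, the tissue and urokinase plasminogen activators, had log2 differences of -1.26 and 0.56. The clearance receptor LRP1 had 0.29, the heparan sulfotransferase HS3ST1 -1.06, the lipase PNPLA2 0.32 and cathepsin G (CTSG) -0.79. LRP1 was under the pooled median on liver (19.9) and on every mix (8.6 to 23.6), so its difference has no weight. On adipose tissue 5 of the 18 exceeded every mix and 3 were below every mix, against 26.9% and 15.7% of all probe sets tested. LRP1, which passed the filter on adipose tissue alone (59.5), adds no weight to the 5. PNPLA2 gave 10465 on adipose tissue, a log2 difference of 3.02 from the mixes, and HS3ST1 830.8 (2.26).

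By their brightest probe sets the 4 serpins of matrix and cells were bright on most arrays, and none was above all 4 mixes on liver. The fainter probe sets of SERPINF1, described below, were above all 4 there. SERPINH1, also called HSP47, is the chaperone that binds newly made collagen in the endoplasmic reticulum. It gave 313.6 on liver, 1872 on adipose tissue and 1911, 1526, 4088 and 1861 on mix 1 to mix 4. Mix 3 stood above the others by 2.14-fold, liver lay 4.87-fold below the next lowest array, and adipose tissue fell within the range of the mixes. The log2 difference was -2.74 for liver minus the mixes and -0.21 for adipose tissue minus the mixes. Relative to the median shift of the liver array, the liver difference was -2.0.

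SERPINE2, protease nexin-1, is a cell-surface inhibitor of thrombin and urokinase. It gave 277.5 on liver, 1869 on adipose tissue and 1785, 1259, 6598 and 3464 on the mixes. The order was close to that of SERPINH1, with mix 3 highest by 1.90-fold and liver 4.54-fold below the next lowest array. Its log2 difference was -3.21 for liver minus the mixes, or -2.47 relative to the shift of the liver array, and -0.52 for adipose tissue minus the mixes. Without mix 3 these differences were -2.78 and -0.08.

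SERPINB6, an inhibitor kept inside the cell whose human form blocks cathepsin G, was measured by a pair of probe sets. The brighter gave 343.8 on liver, 887.8 on adipose tissue and 1819, 570.2, 737.2 and 763.2 on mix 1 to mix 4. Mix 1 was 2.05-fold above the next array, and the other mixes and adipose tissue lay close together. Its second probe set gave 101.3 on liver, 531.0 on adipose tissue and 908.8, 327.6, 345.3 and 329.8 on the mixes. Liver was lowest and mix 1 highest by both, with log2 differences for liver minus the mixes of -1.31 and -1.95. With quantile scaling the first became -0.69. That second probe set also has the suffix _s_at.

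Of these 4 genes 3, SERPINH1, SERPINE2 and SERPINB6, were lowest on liver, but so were 58.1% of the probe sets tested. With quantile scaling the same 3 were lowest there, as were 25.05% of probe sets. SERPINH1 and SERPINE2 were at least 4-fold below the mean of the mixes on liver, as were 7.16% of probe sets. Against adipose tissue they had log2 differences of -2.53 and -2.69, in a comparison where 11.9% of probe sets were at least 4-fold lower on liver. With quantile scaling those became -1.56 and -1.70, short of 4-fold.

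**Figure D3:**
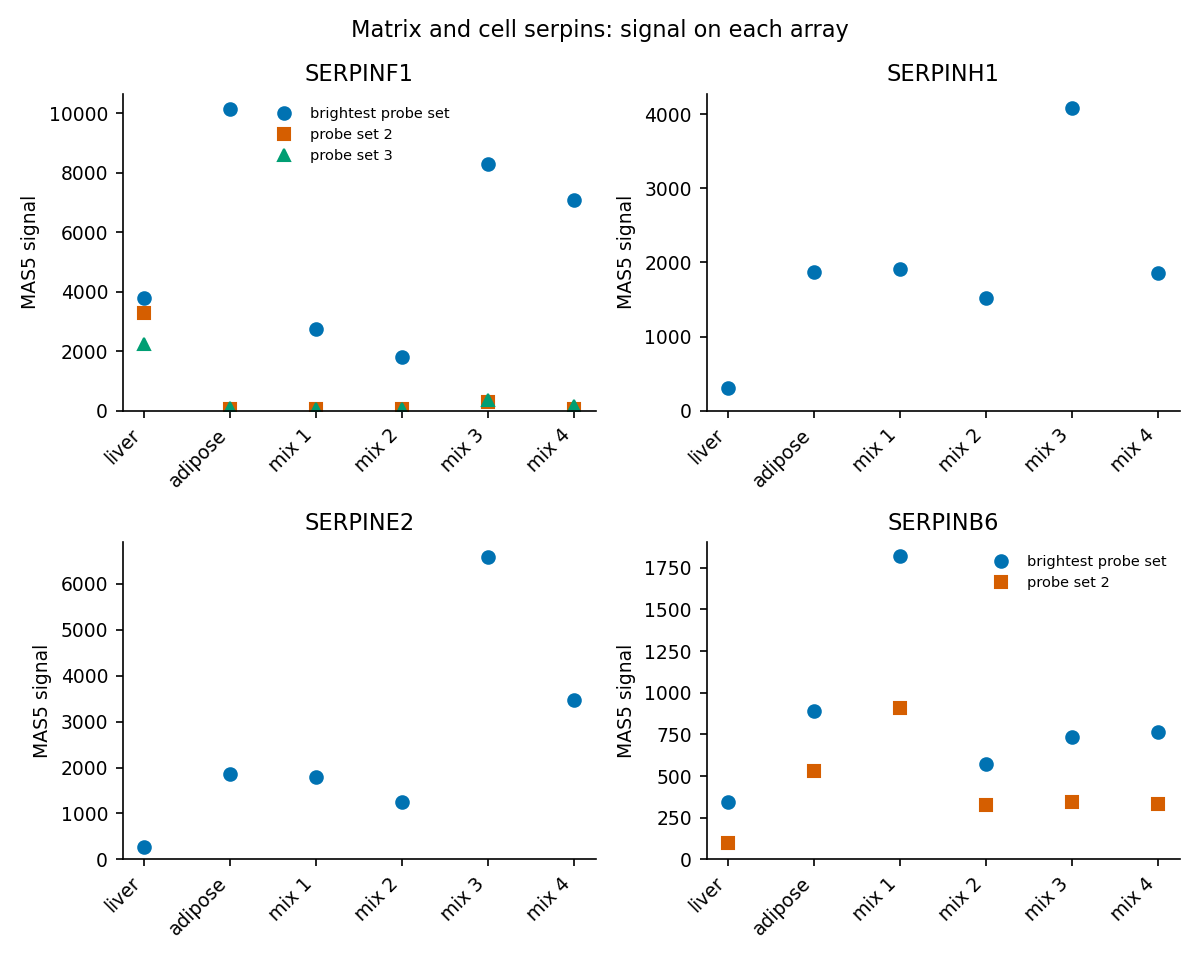
MAS5 signal (linear axis) of SERPINF1, SERPINH1, SERPINE2 and SERPINB6 on liver, adipose tissue and mix 1 to mix 4, with 1 point per array and probe set. SERPINH1 and SERPINE2 are highest on mix 3 (4088 and 6598), and the 3 probe sets of SERPINF1 differ in pattern.

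SERPINF1 is pigment epithelium-derived factor, a secreted serpin without inhibitory activity that restrains vessel growth and, in mammals, is abundant in fat cells. Its brightest probe set gave 3795 on liver, 10158 on adipose tissue and 2735, 1797, 8290 and 7090 on mix 1 to mix 4. Adipose tissue was highest, 1.23-fold above mix 3, and liver fell within the range of the mixes. The log2 difference was 1.30 for adipose tissue minus the mixes, -0.12 for liver minus the mixes and -1.42 for liver minus adipose tissue. SERPINF1 was the 1 member above all 4 mixes on adipose tissue, where 26.9% of probe sets were. With trimmed-mean scaling it was no longer above all 4.

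The other probe sets of SERPINF1 gave an opposite picture. One read 3283 on liver, 57.0 on adipose tissue and 68.1, 76.3, 294.9 and 67.1 on mix 1 to mix 4. The second, which has the suffix _s_at, read 2243 on liver, 105.3 on adipose tissue and 66.5, 52.5, 352.7 and 167.5 on the mixes. Both were brightest on liver, 11.1-fold and 6.36-fold above the next array, which was mix 3 in both. Their log2 differences were 4.83 and 4.05 for liver minus the mixes, and 5.55 and 4.25 for liver minus adipose tissue.

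As a measure of likeness, the distance between 2 probe sets over the 6 arrays (Euclidean, on log2 levels centred on their own mean) was 1.51 between those 2 and 5.45 and 4.34 between each and the brightest. For SPIA4, SPIA5 and SERPINB6 the distances between probe sets of 1 gene were 0.51 to 1.19. With the mean of its 3 probe sets, SERPINF1 would stand at 2.92 for liver minus the mixes and 0.12 for adipose tissue minus the mixes. Which transcript each probe set reads was not tested. In the RefSeq gene table SERPINF1 lies near SERPINF2, with 1 protein-coding gene between them, and the files do not settle whether the pair that is bright on liver reads SERPINF1 or SERPINF2. The differences of 4.83 and 4.05 and the mean of 2.92 may therefore not be those of SERPINF1. The direction given for SERPINF1 on liver therefore holds for a single probe set only.

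The collagens and the enzymes that modify them, the clients and partners of SERPINH1, mostly lay below the mixes on liver as well. For 20 of 23 such genes liver was below every mix and for 1 above, as it was for 60.5% and 6.78% of all probe sets tested. This list too was drawn up with earlier results of these data known, so its counts here and below are a description. The median log2 difference of the 23 was -1.74, against -0.75 over all probe sets tested. With quantile scaling, which lifts the liver array, liver was below every mix for 14 of the 23 and for 27.8% of all probe sets, and above every mix for 23.1% of all. By limma 0 had an adjusted p under 0.05, and 11 had an unadjusted one under 0.05, against 19.8% of all probe sets. COL1A2, a chain of type I collagen, gave 905.6 on liver, 12757 on adipose tissue and 9297, 3392, 15513 and 13738 on the mixes (-3.30, limma adjusted p = 0.201). P4HB and PPIB, which also fold proteins other than collagen, had differences of 0.60 and -0.13.

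On adipose tissue many of the partners had larger differences than SERPINH1. Adipose tissue exceeded every mix for 9 of the 23 partners and was below every mix for 0, as it was for 26.9% and 15.7% of all probe sets tested. With trimmed-mean scaling those shares were 18.7% and 24.4%, and the count for the partners was 9 again. Without mix 3 the 9 became 18. The share of all probe sets without mix 3 is not given here, so that rise cannot be read as particular to the partners. The partners' median log2 difference was 0.88 against 0.08 for all probe sets tested, where SERPINH1 was at -0.21. LOX, which crosslinks collagen, had 2.97, COL6A3 1.99 and COL4A1, a basement membrane collagen, 1.91. None of the 25958 probe sets passed limma on adipose tissue (1905 at an unadjusted p under 0.05). Of the 23 partners 12 were brightest on mix 3, as SERPINH1 was, where 14.6% of probe sets were, and 9 were brightest on adipose tissue (25.9% of probe sets).

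Over the 6 arrays the partners nearest to SERPINH1 in pattern were SPARC, a collagen-binding matrix protein, at a distance of 0.94, CRTAP, part of the collagen prolyl hydroxylation complex, at 0.99 and COL1A1 at 1.10. Of the 23, 9 were among the nearest 10% of 11626 genes, and the median distance was 1.89 for the partners and 2.53 for all genes. The vascular collagen COL4A1 (3.22) and LOX (3.43) were farther than most genes. The fibroblast markers' summed signal was 4489 on liver, 24785 on adipose tissue and 8111, 6282, 16874 and 11514 on mix 1 to mix 4, with none at 0. That sum is mostly DCN and LUM. Of the 8 markers measured 3 were highest among the mixes on mix 3, where SERPINH1 and SERPINE2 were highest, and 4 (MFAP5, OGN, PI16 and COL14A1) were lowest there. The median log2 level of the markers was 8.22, 8.54, 7.85 and 8.74 on mix 1 to mix 4. Their part in the serpins' levels was not tested.

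**Figure D4:**
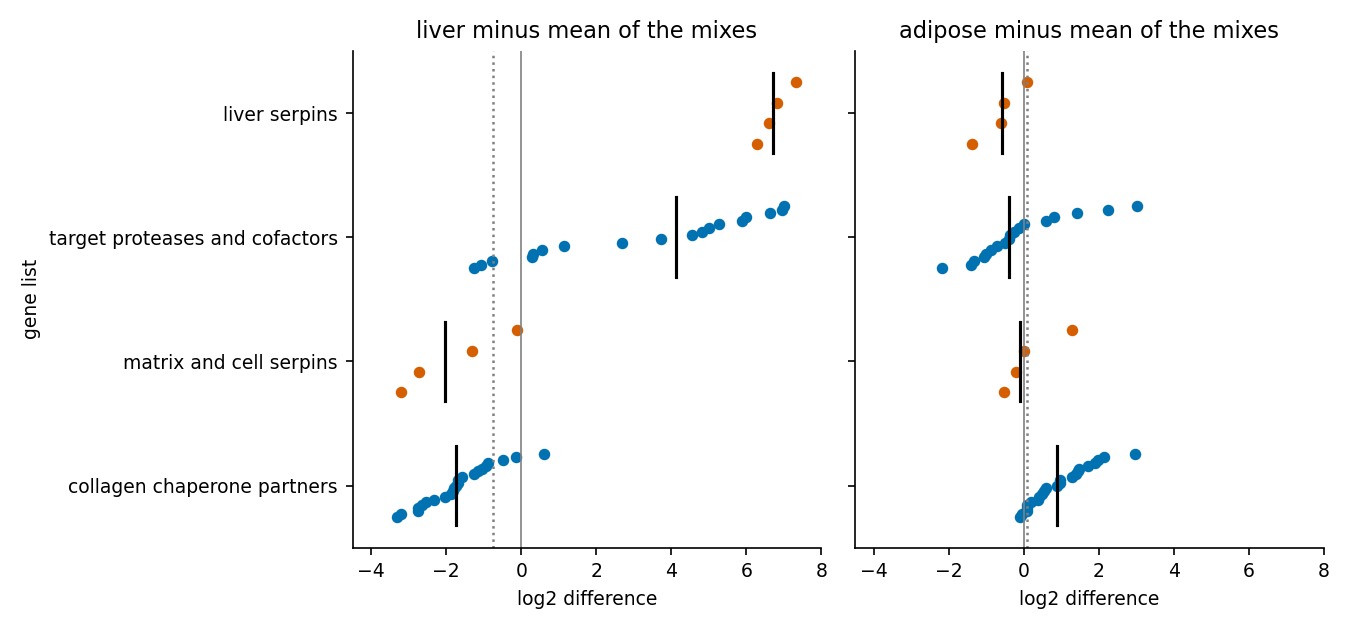
Log2 difference from the mean of the 4 mixes, for liver (left) and adipose tissue (right), with 1 point per gene. The lists are the liver serpins, the proteases, cofactors and other partners of liver and matrix serpins, the matrix and cell serpins and the collagen partners. Bars mark the medians, and a dotted line the median of all probe sets tested. On liver the medians are 6.72, 4.13, -2.03 and -1.74, and on adipose tissue -0.58, -0.39, -0.10 and 0.88.

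Among all 11626 genes with a tested brightest probe set, the patterns nearest to each member were named by the same distance, with nothing implied of shared function. SPIA4 lay nearest to SULT (0.71), SPIA5 (0.84) and the kininogen KNG1 (0.86). SPIA5 lay nearest to SULT (0.63), the tryptophan dioxygenase TDO2 (0.77) and the complement component C8A (0.78). For SERPINA10 they were CPB2, a carboxypeptidase that slows fibrinolysis (0.82), F9 (0.89) and SPIA4 (1.09), all with liver at 3289 or more and the other arrays at 42.2 or less. SERPIND1 had no neighbour as close, with A2ML2 at 1.30, F9 at 1.75 and SPIA4 at 1.93.

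The nearest patterns of SERPINH1 were those of BMP2, a growth factor of bone (0.37), CCNF (0.41) and DCK2 (0.47), each with mix 3 highest and liver lowest. SERPINE2 lay nearest to LRRC15 (0.61), MXRA8, a matrix remodelling-associated protein (0.67), and PTGES (0.73). MXRA8 gave 139.3 on liver, 679.9 on adipose tissue and 485.1, 427.5, 2541 and 1174 on the mixes. SERPINF1 lay nearest to KANK4 (0.77), ARHGAP31 (0.86) and CEP120 (0.88), and SERPINB6 to PHF11 (0.33), CILP (0.35) and the myosin light chain MYL6 (0.37). Several of these neighbours are faint on some arrays, down to 4.7 for CEP120 on mix 1.

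The wider family holds 14 further serpin genes on the array, of which 11 were tested, and by limma 0 of them passed on liver or on adipose tissue (4 and 0 of the 11 at an unadjusted p under 0.05, against 19.8% and 7.34% of all probe sets). In the RefSeq gene table SERPINA10, SPIA4, SPIA1, SPIA5, SPIA9 and SPIA3 follow each other on chromosome 5 with no other protein-coding gene between them. Of the 5 measured, all were brightest on liver, as were 5.53% of all probe sets tested. SERPINA10, SPIA4 and SPIA5 are members, chosen with these signals known, so nothing follows from that count. SPIA1, listed also as SERPINA1, gave 8931 on liver, 35.7 on adipose tissue and 110.9, 200.5, 34.1 and 102.7 on the mixes (6.35, limma adjusted p = 0.105). SPIA3 gave 604.9 on liver and 0.9 to 6.0 elsewhere (5.30, limma adjusted p = 0.0799). It exceeded the pooled median on liver alone and was tested only because of that value. Its p-value therefore carries no weight, also in the count at an unadjusted p under 0.05. As paralogues, the genes of this cluster may share part of each other's signal.

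Outside that cluster, AGT, the angiotensin precursor, gave 6953 on liver, 25.9 on adipose tissue and 1.4, 16.0, 31.9 and 1166 on mix 1 to mix 4. Its mix 4 signal was thus the highest outside liver. SERPING1, the inhibitor of complement C1, gave 1491 on liver, 155.3 on adipose tissue and 195.8, 627.3, 126.7 and 188.9 on the mixes. SERPINI1, neuroserpin, gave 17.3 on liver, 46.1 on adipose tissue and 32.9, 394.8, 86.0 and 2191 on the mixes.

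The clade B serpins, many of which act inside cells, also lie together, on chromosome 2 in the RefSeq table, with SERPINB6 next to SERPINB1. They shared no single pattern. SERPINB1 gave 25.8 on liver, 89.5 on adipose tissue, 647.5 on mix 1 and 55.2 to 162.1 on the other mixes, which puts mix 1 highest for it as for SERPINB6. SERPINB10B, a chromatin protein of avian blood cells also named MENT, gave 253.7 on liver, 109.3 on adipose tissue, 8687 on mix 3 and 2658 on mix 4. SERPINB2 was brightest on mix 3 as well (532.6), and SERPINB5 on mix 1 (127.1). Ovalbumin (OVAL), the egg white serpin of the hen's oviduct, stayed at 10.8 to 22.1 on all 6 arrays of these male birds.

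Over all 22 serpin genes measured, 9 were brightest on liver, 2 on adipose tissue, 4 on mix 1, 0 on mix 2, 6 on mix 3 and 1 on mix 4. Of all probe sets tested 5.53% were brightest on liver, 25.9% on adipose tissue and 14.6% on mix 3. The shares for the other mixes are not given here. Of the 22 genes 8 are members, chosen with these signals known, and SERPINF1 counts for adipose tissue by its brightest probe set only. OVALX counts for adipose tissue with 56.5 against 52.4 on mix 4, both near the pooled median, so its place has little weight. The 3 serpin genes that were not tested (OVAL, OVALY and SERPINE3) are faint everywhere, and their order has no weight. Liver was at least 4-fold above each other array for 7 genes, which were 4 members, SPIA1, SPIA3 and AGT. For SPIA3, SPIA4 and SPIA5, over the pooled median on liver alone, the filter fixed that liver was brightest. They and the other members add no weight to the counts on liver. Mix 3 was at least 4-fold above each other array for 2 genes, and mix 4 for 1. The share of all probe sets tested for liver was 0.913%.

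**Figure D5:**
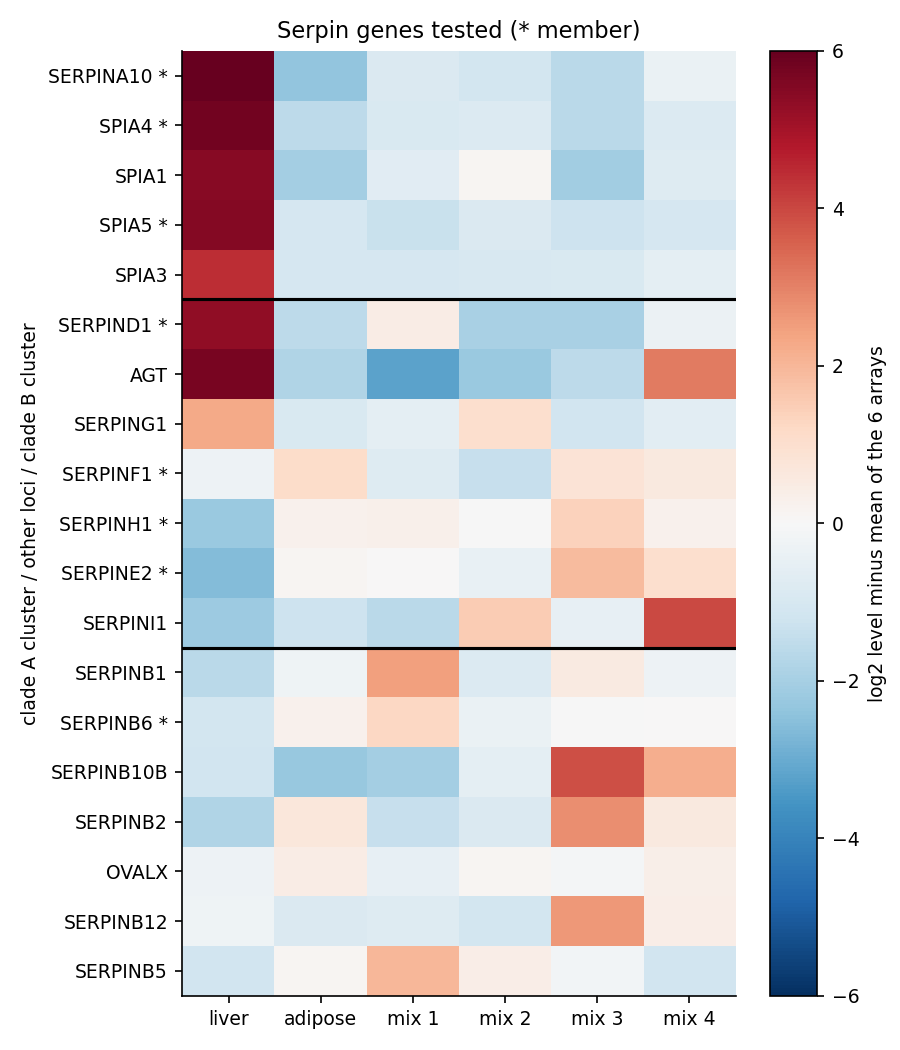
Log2 level minus the gene's mean over the 6 arrays (colour, from -6 to 6) for the 19 serpin genes tested, with arrays in columns and genes in rows, and an asterisk at members. The upper block is the clade A cluster in gene order, the lower block the clade B cluster, and the genes between them lie at other places. The 5 clade A genes, chosen members among them, are brightest on liver. The clade B genes are brightest on mix 1 or mix 3, except OVALX, which lies near the pooled median on all arrays (23.1 to 56.5).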

How the data were processed

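The deposited values are MAS5 signal intensity on the linear scale, per the submitters' processing notes; its version and scaling target were not given in the sources used here. Groups came from sample titles, since the description field names adipose tissue for all 6 arrays. Of 38535 probe sets 96 Affymetrix controls were left out, and 25958 of 38439 were tested. No further scaling was applied. Of the probe sets, 27168 had 1 symbol, 177 several and 11094 none listed; 26853 matched the RefSeq table (GRCg7b) by gene number, with no symbol changed. A gene was taken by its probe set with the highest mean.

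The limma test (3.58.1, R 4.3.3) used a mean for each group, trended eBayes and Benjamini-Hochberg adjustment over all probe sets at 0.05, two-sided. It rests on 3 residual degrees of freedom among the 4 mixes and assumes that liver and adipose tissue, with 1 array each, vary like them. P-values measure that spread only, and so few arrays limit the precision. An exact permutation test was not used. The fit was also run on simulated data in which every array was given the spread of the mixes. That run cannot check whether liver and adipose tissue vary like the mixes.

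Members and gene lists were chosen with earlier results of these data known. Genes were named by rule: all members and other serpins, and the 3 nearest in pattern to each member. Of each other list the rule took those with the largest differences. Further genes were named for their role, distance or signal on the mixes after their values were seen. Among the proteases and partners these were PROZ, F10, PLAT, PLAU, LRP1, HS3ST1, PNPLA2, CTSG, PROC and KLKB1. In the other lists they were P4HB, PPIB, SPARC, CRTAP, COL1A1, COL4A1, ALB, FGB, APOH, DCN and the 4 fibroblast markers low on mix 3. Alternatives were pseudocount, floor, scaling, filter, eBayes trend, probe set choice and each mix left out.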

Additional observations from a re-analysis of the deposited data

Results flagged for a closer look

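Over the 4 mixes, 14 probe sets of the members were looked at for a sample far from the others, by the gap to the nearest sample as a share of the whole range on the log2 scale against Dixon's 95% critical value for 4 samples, which chance passes in about 1 of 20 groups. Of these 4 passed. The rate of 1 in 20 assumes samples of 1 population, whereas the mixes have unlike content and some of the probe sets share a gene. The 4 can therefore not be weighed against it. Mix 3 was the low one for the brightest probe set of SPIA4 (6.6 against 18.4 to 20.8, ratio 0.864), and mix 1 the high one for the fainter probe set of SPIA5 (3.9 against 1.0 to 1.2, ratio 0.925), both near the floor of the arrays. For SERPINF1 mix 3 was the high one by 1 of the liver-bright probe sets (294.9 against 67.1 to 76.3, ratio 0.919). For the second probe set of SERPINB6 mix 1 was the high one (908.8 against 327.6 to 345.3, ratio 0.949).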

How the results depend on the processing

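By limma 18 probe sets passed on liver. The count was 84 with the pooled median as pseudocount, 204 with values below it set to it, 59 with quantile and 77 with trimmed-mean scaling, 32 without the filter, 28 without the trend and 0 with any 1 mix left out. On adipose tissue 0 passed, and 671 with the floor. The number of members at least 4-fold above the other 5 arrays on liver was 4 under every alternative run. The number above all mixes on adipose tissue was 1, or 0 with trimmed-mean scaling, 0 with the mean of all probe sets and 1 to 2 with 1 mix left out (2 without mix 1). Of 208 alternative values of the members' differences 179 moved by less than the SD among the mixes and 29 by more. Signs changed in 15, all where the main difference was under 4-fold: SERPINF1 on liver against the mixes and, with the mean of its probe sets, against adipose tissue, and SPIA5, SERPINH1 and SERPINB6 on adipose tissue. The number of collagen partners above all mixes on adipose tissue, an alternative chosen after seeing the data, was 9 to 18 with 1 mix left out (18 without mix 3). The shares of all probe sets in those runs are not given here. The cause was not tested. No paired analysis was possible because liver and adipose tissue have 1 array each. Signal near the floor limits the differences of the liver serpins.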
